A study of Mus musculus with 10 samples.

Results

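Endothelial and mural cell genes were examined in whole dorsal root ganglia (DRG) of mouse embryos. The 32 genes were given as a list of symbols and were matched to the Ensembl identifiers of the counted genes. All 32 were found, among 55414 genes counted in each library, of which 52081 have a symbol. Of these, 26 mark endothelial cells, which line blood vessels, and 6 mark mural cells, the pericytes and smooth muscle cells that wrap them.

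RNA of DRG was sequenced at E18.5, shortly before birth, from 5 control and 5 *WD1* cKO embryos. Both groups carried *Dach1* flox/flox, and the *WD1* cKO embryos also carried *Wnt1*-Cre, while the controls were littermates without Cre, on a mixed C57Bl/6J and CD1 background. Cre under *Wnt1* control acts in the neural crest, from which the neurons and glia of DRG arise, and deletes a floxed exon of *Dach1*. *WD1* cKO pups die soon after birth, which limits the model to embryonic stages. The comparison addresses how DRG transcripts differ when *Dach1* is lost early. In the labels, the field for genotype names the opposite group from the title of each library, and groups were taken from the titles.

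Endothelial cells arise from mesoderm, and those of the trunk are not expected targets of *Wnt1*-Cre. They are recognised by junction proteins such as VE-cadherin and by receptors for vascular endothelial growth factor (VEGF) and angiopoietins, and they recruit pericytes by secreting PDGF-B, which is read by the receptor *Pdgfrb* on mural cells. Vessels of sensory ganglia are known to be more permeable than those of the brain, and *Dach1* itself is known in endothelial cells of developing coronary arteries.

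Control libraries held between 20465132 and 27528784 counts (median 22544236), and *WD1* cKO libraries held between 19757596 and 34796562 (median 26377947). Levels are given as CPM, each count scaled to the size of its library, after TMM scaling, a correction for differences in library composition. *Dach1* was at 35.1, 38.5, 41.6, 37.1 and 37.4 CPM in control replicates 1 to 5 and at 19.1, 20.8, 19.5, 20.3 and 20.4 CPM in *WD1* cKO replicates 1 to 5. Every library titled as carrying Cre was therefore below every control library. On the log2 scale the difference was -0.92 with a standard error of 0.050 (adjusted p = 5.48e-06 by the quasi-likelihood test of edgeR, adjusted by Benjamini-Hochberg over 17490 genes). Reads on every exon of *Dach1* enter its count.

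The labels name the cells as neurons and glia. The vascular genes were nonetheless all measured: the lowest count of a member in a library was 92 and the highest was 3595, and all 32 members passed the filter of at least 10 counts in at least 5 libraries. Some of these genes are also known in other cells, such as *Pdgfb* in neurons, *Cspg4* in glial precursors and *Cd34* and *Pdgfrb* in fibroblasts. In bulk RNA, fewer cells of a type and less RNA per cell cannot be told apart.

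Levels of different genes were compared per kilobase of exon. The length of a gene was the union of all its annotated exons in the GENCODE annotation of GRCm38. *Cdh5*, which encodes VE-cadherin of endothelial junctions, had the highest mean at 23.3 CPM per kilobase. The mural genes *Rgs5*, a regulator of G protein signalling, and *Pdgfrb* followed at 15.4 and 13.6 CPM per kilobase. *Plvap*, which forms the diaphragms of fenestrae and caveolae, was at 11.8 and *Egfl7*, a secreted matrix protein, at 11.5 CPM per kilobase. The lowest were the transcription factors *Erg* and *Sox17*, at 1.58 and 1.29 CPM per kilobase, and the prostaglandin transporter *Slco2a1*, at 1.25 CPM per kilobase. The span from the highest to the lowest mean was 18.7-fold. This order depends on the lengths used. *Slco2a1* has 13545 bases by this union, and its mean of 16.9 CPM lay above those of *Erg* (5.46 CPM) and *Sox17* (6.15 CPM). In 30 of the 31 pairs of neighbours in this order, the ranges over the 10 libraries overlapped, and only *Tie1* and *Clec14a* were separated.

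**Figure D1:**
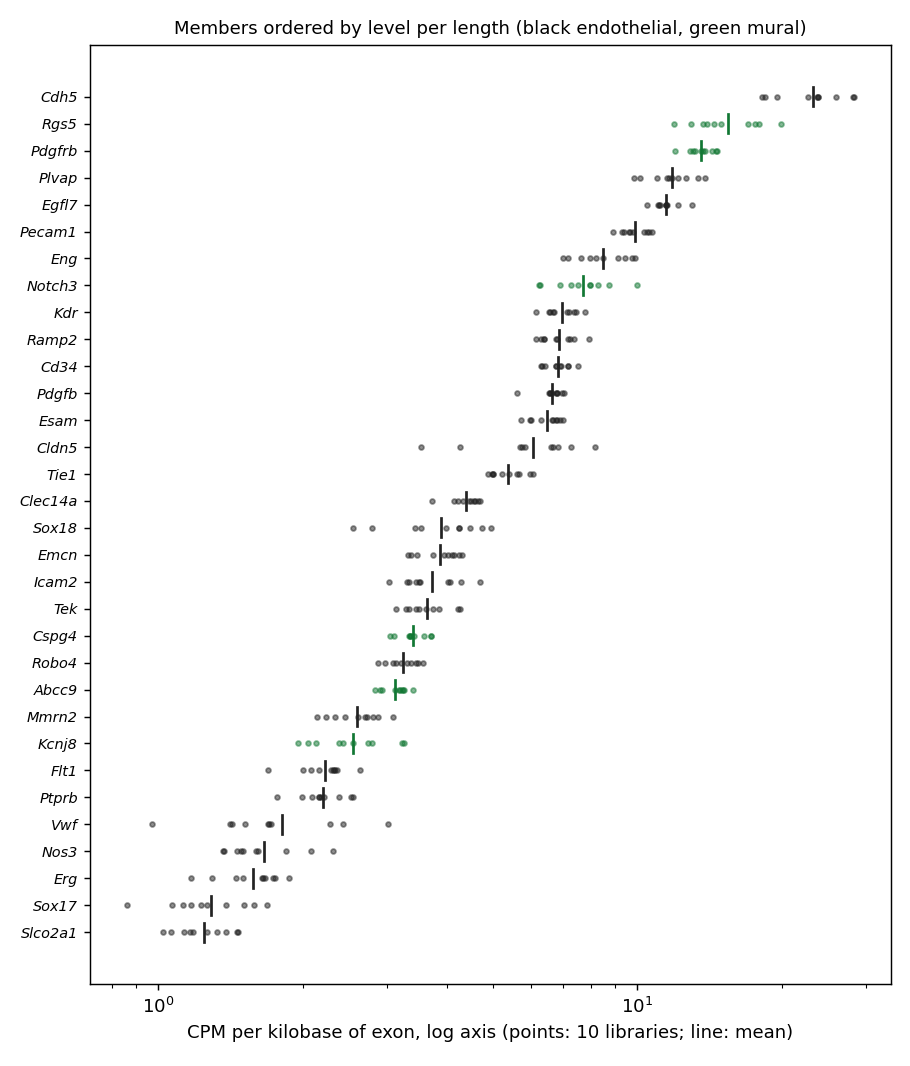
Level of the 32 members in CPM per kilobase of exon on a log axis, with 1 point for each of the 10 libraries and a line at the mean, endothelial genes in black and mural genes in green. *Cdh5* is at the top with a mean of 23.3 and *Slco2a1* at the bottom with 1.25.

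Some libraries stood apart in ways that genotype does not define. Replicates 4 and 5 of both groups differed from replicates 1 to 3. This split was noticed in the counts, where haemoglobin was low in replicates 4 and 5, and is not named in the labels. In a principal component analysis of the 17458 other genes tested, with the members left out, the first component held 28.4% of the variance. Replicates 4 and 5 lay at -21.2 and -20.2 in control and at -22.6 and -23.6 in *WD1* cKO embryos, and the other 6 libraries lay between 0.598 and 26.6. Because low haemoglobin marked the split, the erythroid values that follow describe it and do not test it. This holds for the haemoglobin gene *Hbb-bs*. It was at 1294, 862, 589, 88.9 and 108 CPM in control and at 643, 374, 273, 142 and 108 CPM in *WD1* cKO replicates 1 to 5, so that replicates 4 and 5 had less than all others in both groups. Of 10 erythroid genes listed, 9 were found and 8 tested. Of the 8, 7 were lower in replicates 4 and 5 than in each other library, against 5.07% of all genes tested. The list summed to 2507, 1654, 1084, 156 and 184 CPM in control and to 1150.0, 724, 513, 244 and 190.5 CPM in *WD1* cKO replicates 1 to 5. Total counts of these 4 libraries ranged from 19757596 to 34796562 and overlapped with the others.

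Control replicate 3 stood apart in genes of the spinal cord. The 7 spinal cord genes listed summed to 12.8 CPM there and to between 0.515 and 2.05 CPM in the other 9 libraries. *Olig2*, a marker of oligodendrocyte and motor neuron precursors, was at 0.800 CPM in that library, at up to 0.220 CPM in the others and at 0 in 3 of them. The glycine transporter *Slc6a5* was at 4.66 CPM and the interneuron factor *Pax2* at 3.81 CPM there, while the motor neuron factor *Mnx1* was at 0. The most abundant gene of the list over all libraries was *Nkx6-1*, which was not highest in that library. In control replicate 2, 5 of the 6 mural members were at their lowest.

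In the comparison of genotypes, none of the 32 members had an adjusted p under 0.05 by edgeR. Over all 17490 genes tested 7 did, which is 0.0400%. With DESeq2 the count of members was also 0, and 1 member, again *Slco2a1*, had an unadjusted p under 0.05. Over all genes DESeq2 gave 751 of 37076 with such a p (2.03%), and 20 of the 23055 it adjusted over had an adjusted p under 0.05. In edgeR there was likewise 1 member with an unadjusted p under 0.05, *Slco2a1*, against 787 of all genes tested (4.50%), so that the members' share was near the background. *Slco2a1* was also the 1 member past the threshold used in the study, an unadjusted p under 0.005 with a log2 fold change of more than 0.15 either way, which 67 genes passed (0.383%). No member's groups were free of overlap, against 0.497% of all genes tested that were higher in every *WD1* cKO library and 0.566% that were lower. The median log2 fold change was 0.02 for the 26 endothelial members and 0.02 for the 6 mural members, against 0.00 for all genes tested. Of the 32, 22 had a fold change above 0 and 10 below, while 50.1% of all genes tested lay above 0.

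The 95% interval of the log2 fold change lay within ±0.25 for 18 of the 32 members and within ±0.5 for 30. The exceptions were *Vwf* (-0.71 to 0.37) and *Cldn5* (-0.28 to 0.56), the members with the largest spread within groups. The interval held 0 for all members other than *Slco2a1*.

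**Figure D2:**
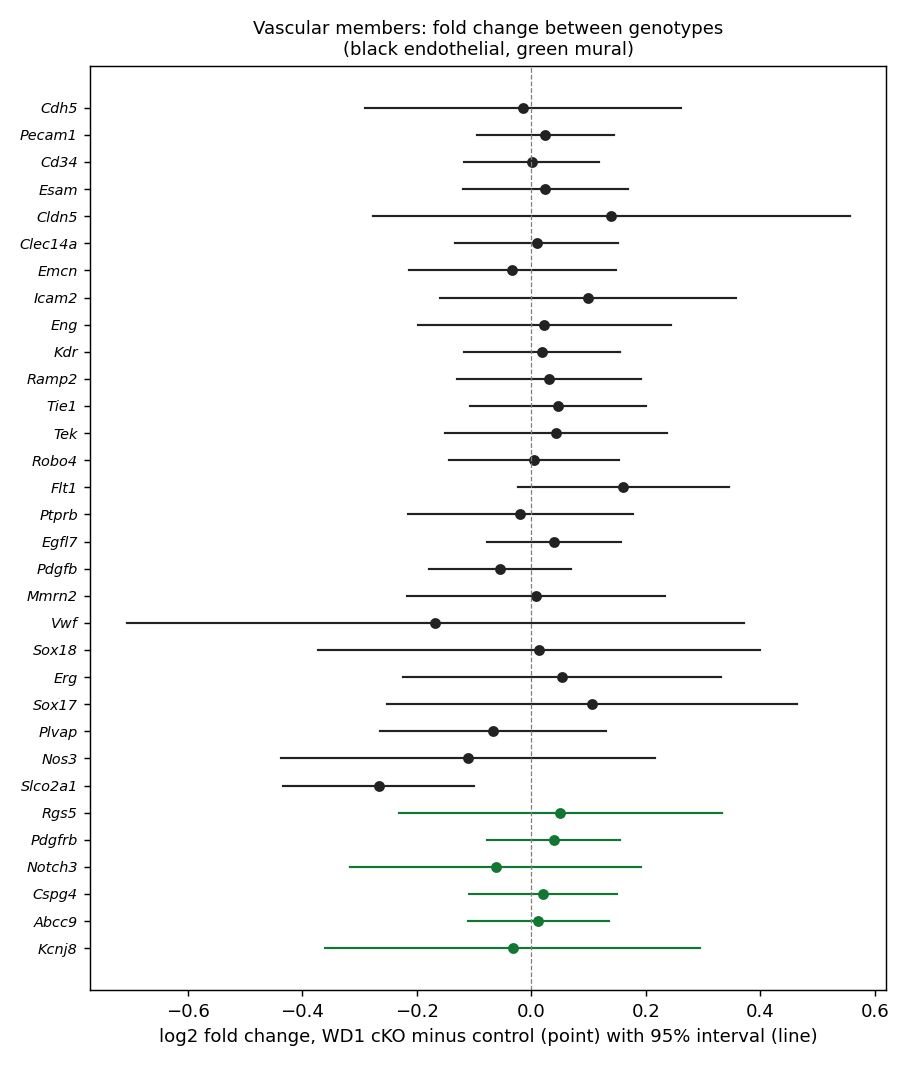
Log2 fold change of each member in *WD1* cKO against control (point) with its 95% interval (line) from the quasi-likelihood fit, n = 5 embryos in each group, grouped by role with mural genes in green. The interval excludes 0 for *Slco2a1* and includes it for the other 31 members.

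*Slco2a1* (ENSMUSG00000032548, chromosome 9) encodes a transporter that takes up prostaglandins and is known in endothelium. It was at 19.8, 18.8, 18.0, 19.7 and 15.8 CPM in control replicates 1 to 5 and at 17.1, 13.9, 15.3, 16.0 and 14.4 CPM in *WD1* cKO replicates 1 to 5. Control replicates 1 to 4 lay above every *WD1* cKO library, while control replicate 5 lay below *WD1* cKO replicates 1 and 4, so the groups overlapped. The mean was 18.4 ± 1.66 CPM (SD, n = 5) in control and 15.3 ± 1.30 CPM (SD, n = 5) in *WD1* cKO embryos. The fold change on the log2 scale was -0.27 (SE 0.077, 95% interval -0.43 to -0.10, unadjusted p = 0.00446, adjusted p = 0.9998, edgeR), which did not pass the adjustment. An exact 2-sided permutation test of log2 CPM gave p = 0.0238, where 0.00794 is the smallest value that 5 against 5 libraries can give. The log2 fold change was -0.29 within replicates 1 to 3 and -0.23 within replicates 4 and 5, where the unadjusted p was 0.104 with 2 libraries in each group. Its count can gain or lose reads through an annotated gene on the opposite strand, as the strand setting of the counting is not given in the sources used here.

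Among the receptors, *Flt1*, VEGF receptor 1, came next in the order of p. It was at 27.1, 22.9, 28.1, 31.9 and 31.5 CPM in control and at 31.0, 31.5, 31.3, 35.6 and 29.2 CPM in *WD1* cKO replicates 1 to 5. Control replicate 2 was the lowest and the other libraries of the groups overlapped. The log2 fold change was 0.16 (unadjusted p = 0.0824, adjusted p = 0.9998, edgeR), and without control replicate 2 it was 0.09 (unadjusted p = 0.200, edgeR). Within replicates 1 to 3 it was 0.26 with an unadjusted p of 0.00836, and within replicates 4 and 5 it was 0.02 with an unadjusted p of 0.814. With the split between these replicates as a term in the model, the unadjusted p was 0.0379 and the adjusted p 0.657. The difference between the 2 sets of replicates was not tested.

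*Kdr*, VEGF receptor 2 and the main signalling receptor for VEGF-A, was at 66.7, 64.3, 60.4, 55.5 and 65.1 CPM in control and at 70.3, 67.1, 59.4, 60.1 and 59.0 CPM in *WD1* cKO embryos. The groups overlapped over most of their range. Of the other receptors, *Tek* is the angiopoietin receptor and *Tie1* its partner. In control against *WD1* cKO embryos, *Tek* was at 16.9 ± 1.85 against 17.4 ± 1.90 CPM and *Tie1* at 25.98 ± 2.12 against 26.8 ± 2.34 CPM (SD, n = 5). *Ptprb*, a phosphatase acting on *Tek* and VE-cadherin, was at 29.6 ± 4.31 CPM in control and 29.2 ± 1.85 CPM in *WD1* cKO embryos (SD, n = 5). *Eng*, a co-receptor for bone morphogenetic proteins, *Ramp2*, the partner that makes the calcitonin-like receptor bind adrenomedullin, and *Robo4*, an endothelial roundabout receptor, also differed by less than their spread. Of the 8 receptors 7 had a fold change above 0 and none had an unadjusted p under 0.05.

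*Pecam1*, an adhesion molecule of endothelial contacts, was among the steadiest members. It was at 59.7, 55.4, 66.9, 58.5 and 64.1 CPM in control and at 57.9, 65.1, 65.7, 60.01 and 60.9 CPM in *WD1* cKO embryos, with means of 60.9 ± 4.56 and 61.9 ± 3.38 CPM (SD, n = 5). The groups covered nearly the same range. The sialomucin *Cd34* had means of 49.7 ± 2.30 and 49.7 ± 3.71 CPM (SD, n = 5). *Cldn5*, a claudin of tight junctions, ranged from 5.00 CPM in control replicate 4 to 11.5 CPM in control replicate 3, and from 8.13 to 9.67 CPM in *WD1* cKO embryos, so the control group spread around the other. *Icam2*, *Clec14a* and *Esam*, further surface and junction proteins, had group means within 1 SD of each other.

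The secreted proteins held the member with the widest spread. *Vwf*, the von Willebrand factor stored in endothelial granules and high in veins and large vessels, was at 24.4, 15.6, 48.3, 27.2 and 39.1 CPM in control and at 27.6, 27.3, 22.7, 22.9 and 36.6 CPM in *WD1* cKO embryos. Its highest and lowest values were both in control libraries, replicates 3 and 2. *Pdgfb*, the ligand that recruits pericytes, was at 28.1 ± 0.734 CPM in control and 27.0 ± 2.22 CPM in *WD1* cKO embryos (SD, n = 5), and *WD1* cKO replicate 1 with 23.3 CPM was the lowest. *Egfl7* was at 40.5 ± 0.807 and 41.7 ± 3.47 CPM and *Mmrn2*, a matrix protein of endothelium, at 10.3 ± 1.58 and 10.3 ± 0.852 CPM in control and *WD1* cKO embryos (SD, n = 5).

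The 3 transcription factors were low in CPM and variable, while per kilobase of exon *Sox18*, at 3.89 CPM, was not among the lowest. *Sox18* was at 7.999, 5.56, 7.67, 4.53 and 5.72 CPM in control and at 4.13, 7.26, 6.89, 6.86 and 6.47 CPM in *WD1* cKO embryos, so the lowest value was in *WD1* cKO replicate 1 and the highest in control replicate 1. *Sox17* ranged from 4.10 to 8.05 CPM in control and from 5.10 to 7.57 CPM in *WD1* cKO embryos. Among enzymes and transporters, *Nos3*, the endothelial nitric oxide synthase, was at 7.14 ± 1.82 and 6.62 ± 0.629 CPM and *Plvap* at 24.0 ± 2.15 and 22.9 ± 3.07 CPM in control and *WD1* cKO embryos (SD, n = 5).

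Of the mural genes, *Pdgfrb* was at 70.4, 65.6, 75.6, 80.0 and 75.1 CPM in control and at 72.3, 80.3, 78.5, 74.4 and 71.4 CPM in *WD1* cKO embryos. Control replicate 2 was the lowest and the groups overlapped. *Cspg4*, the NG2 proteoglycan of pericytes, was at 40.2 ± 2.83 and 40.8 ± 2.79 CPM (SD, n = 5). *Kcnj8* and *Abcc9*, the pore and the sulphonylurea receptor of a potassium channel of pericytes, both lie on chromosome 6. *Abcc9* was at 26.1 ± 1.99 and 26.3 ± 1.05 CPM and *Kcnj8* at 6.59 ± 1.60 and 6.42 ± 0.692 CPM in control and *WD1* cKO embryos (SD, n = 5). None of the 6 had an unadjusted p under 0.05.

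**Figure D3:**
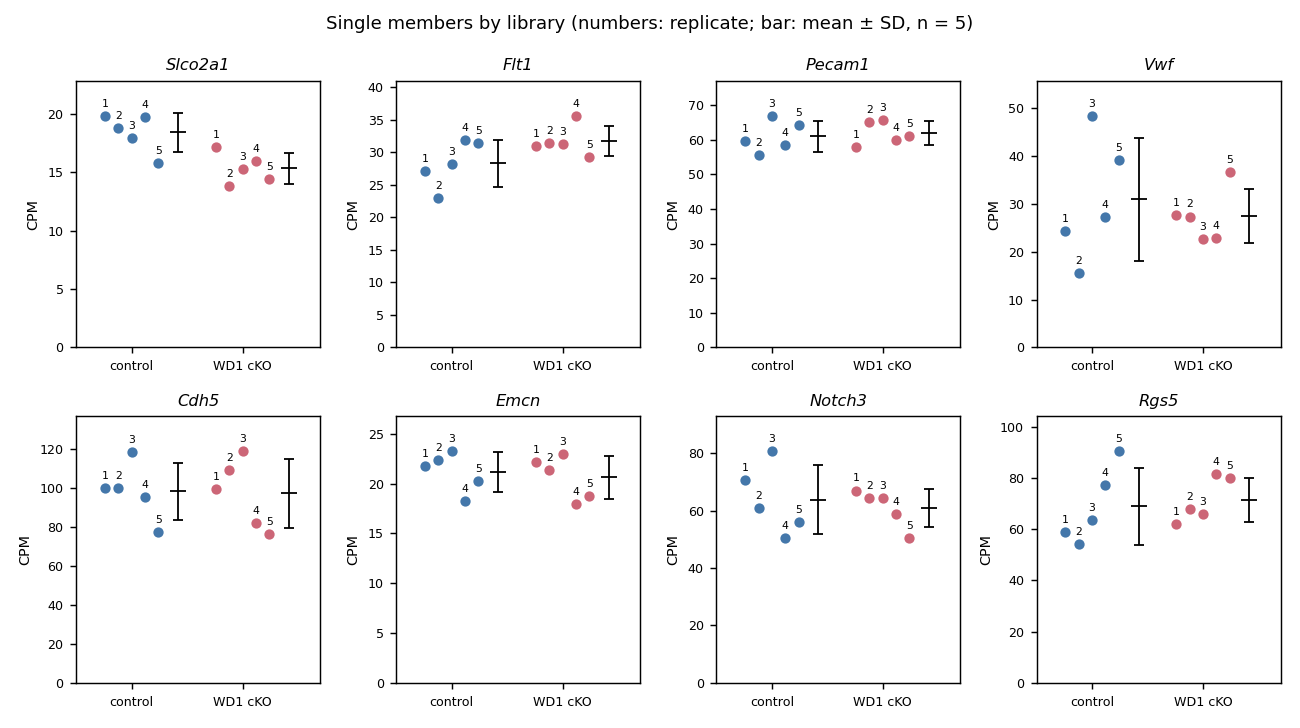
CPM of 8 members in each library, with the replicate number above each point and the mean ± SD (n = 5) beside each group. *Slco2a1* is lower on average in *WD1* cKO embryos, and *Cdh5*, *Emcn* and *Notch3* are lower and *Rgs5* higher in replicates 4 and 5 of both groups.

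Several members separated replicates 4 and 5 of both groups from the other libraries. *Cdh5* was at 100.3, 100.2, 119, 95.6 and 77.7 CPM in control and at 99.8, 109, 119, 82.3 and 76.6 CPM in *WD1* cKO embryos, so that replicates 4 and 5 of both groups lay below the other 6 libraries. *Notch3*, a receptor needed by smooth muscle, was at 70.5, 60.9, 80.7, 50.6 and 55.9 CPM in control and at 67.0, 64.3, 64.3, 58.8 and 50.5 CPM in *WD1* cKO embryos, with the same separation. The reverse held for *Rgs5*, which was at 58.9, 54.1, 63.5, 77.4 and 90.4 CPM in control and at 62.2, 67.8, 65.8, 81.5 and 79.9 CPM in *WD1* cKO embryos. The 5 members *Cdh5*, *Emcn*, *Esam*, *Erg* and *Notch3* were lower in replicates 4 and 5 than in each other library, which is 15.6% of the members against 5.07% of all genes tested. One member, *Rgs5*, was higher, against 6.11% of all genes tested. *Esam* was between 16.4 and 18.0 CPM in replicates 4 and 5 and between 19.0 and 20.1 CPM in the other libraries. These shares describe a split seen in the same libraries, and the part of blood content in it was not tested.

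*Emcn*, a sialoglycoprotein of capillary and venous endothelium, was at 21.8, 22.4, 23.2, 18.2 and 20.2 CPM in control and at 22.2, 21.3, 22.9, 18.0 and 18.8 CPM in *WD1* cKO embryos. *Erg*, an ETS factor of endothelium, was at 5.71, 6.09, 6.50, 4.49 and 4.05 CPM in control and at 6.02, 5.78, 5.73, 5.03 and 5.20 CPM in *WD1* cKO embryos. In both, replicates 4 and 5 were the 4 lowest libraries. Of 128 companion genes tested in 9 vascular lists, 11 were lower and 7 were higher in replicates 4 and 5 than in each other library. Over all genes tested the shares were 5.07% and 6.11%, so the higher companions were near the background. The lower were *Angptl4*, *Aplnr*, *Notch1*, *Hey2*, *Heyl*, *Lmo2*, *Epas1*, *Arhgef15*, *Col4a1*, *Nid2* and *Col18a1*. Among the higher were 2 genes that define their lists: *Vegfa*, the main VEGF ligand, was at 147 and 147 CPM in control and at 152 and 140 CPM in *WD1* cKO replicates 4 and 5, against 112 to 132 CPM in the other 6 libraries, and the glucose transporter *Slc2a1* was between 71.6 and 78.6 CPM against 44.2 to 70.4 CPM.

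Endothelial transcription factors bind short DNA strings, so promoters of 4 of the 6 members that separated the replicates are shown together with that of *Slco2a1*. A RefSeq table of promoters in GRCm38.p6, from 250 bases before to 50 after a start, held 22 windows for 18 of the 32 members and none for *Cdh5* and *Esam*, the other 2 that separated the replicates. Each window was searched on both strands for the ETS strings CCGGAAG and CAGGAAG and the SOX string ACAATG. Capitals mark the matches, which read as the reverse complement where a string lies on the other strand, and the sequences run 5′ to 3′ on the strand of the gene.
Slco2a1, chr9:103008237-103008536 (+ strand): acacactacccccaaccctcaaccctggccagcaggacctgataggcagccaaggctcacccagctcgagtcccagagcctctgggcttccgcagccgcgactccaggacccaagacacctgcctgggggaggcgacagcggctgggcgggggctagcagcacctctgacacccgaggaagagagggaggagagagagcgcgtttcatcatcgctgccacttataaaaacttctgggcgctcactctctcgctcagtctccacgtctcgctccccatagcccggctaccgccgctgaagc
Emcn, chr3:137340828-137341127 (+ strand): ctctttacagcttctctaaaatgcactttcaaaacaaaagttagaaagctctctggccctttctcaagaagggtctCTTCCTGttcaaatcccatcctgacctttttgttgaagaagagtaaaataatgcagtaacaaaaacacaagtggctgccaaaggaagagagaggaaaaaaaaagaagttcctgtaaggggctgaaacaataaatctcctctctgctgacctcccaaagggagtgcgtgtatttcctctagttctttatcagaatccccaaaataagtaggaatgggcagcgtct
Erg, chr16:95459299-95459598 (- strand): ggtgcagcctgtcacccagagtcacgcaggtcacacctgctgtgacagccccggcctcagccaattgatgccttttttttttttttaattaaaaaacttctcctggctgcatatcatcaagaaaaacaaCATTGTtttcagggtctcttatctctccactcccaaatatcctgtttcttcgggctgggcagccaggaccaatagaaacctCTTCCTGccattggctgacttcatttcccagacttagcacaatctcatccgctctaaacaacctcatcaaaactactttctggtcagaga
Rgs5, chr1:169655251-169655550 (+ strand): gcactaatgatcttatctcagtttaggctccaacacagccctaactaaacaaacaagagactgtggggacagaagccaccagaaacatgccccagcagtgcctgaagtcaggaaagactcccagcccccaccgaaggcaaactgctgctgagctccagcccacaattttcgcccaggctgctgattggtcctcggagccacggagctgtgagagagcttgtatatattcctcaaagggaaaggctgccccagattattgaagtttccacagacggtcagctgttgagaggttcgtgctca
Notch3, chr17:32166841-32167140 (- strand): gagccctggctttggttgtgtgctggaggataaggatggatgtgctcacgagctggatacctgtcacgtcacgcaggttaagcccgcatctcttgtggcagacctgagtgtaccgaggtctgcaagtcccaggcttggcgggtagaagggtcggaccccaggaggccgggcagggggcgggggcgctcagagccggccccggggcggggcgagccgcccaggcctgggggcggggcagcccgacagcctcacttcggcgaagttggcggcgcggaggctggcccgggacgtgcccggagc

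The *Emcn* window held CAGGAAG on the other strand, as did the *Erg* window shown, which also held ACAATG on the other strand. The other 2 *Erg* windows of the table held none. The windows of *Slco2a1*, *Rgs5* and *Notch3* held none of the 3 strings. Over the members, 6 of the 22 windows held CAGGAAG (27.3%), against 13.3% of the 32851 windows in the table. None held CCGGAAG, against 8.86% of the table, and 1 held ACAATG (4.55%), against 12.6%. With either ETS string the shares were 27.3% of the member windows and 20.9% of the table. The windows with CAGGAAG came from *Cd34*, *Emcn*, *Erg*, *Robo4* and *Egfl7*, and *Egfl7* gave more than 1. The median GC content was 58.3% in the member windows and 52.7% in the table. A match describes letters and is not a shown binding site.

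Library by library, the 26 endothelial members summed to 693, 651, 776, 673 and 694 CPM in control and to 697, 729, 726, 674 and 660.5 CPM in *WD1* cKO embryos, and the 6 mural members to 273, 246, 297, 279.7 and 299 CPM and to 275, 285, 285, 291 and 269 CPM. Control replicate 3 had the highest endothelial sum and control replicate 2 the lowest endothelial and mural sums. In control replicate 3, 23 of the 26 endothelial members were above their own median over the 10 libraries and 10 had their highest value, against 49.0% and 14.0% of all genes tested. In control replicate 2, 10 endothelial and 5 of the 6 mural members had their lowest value, against 9.93% of all genes tested. The smooth muscle genes *Acta2* and *Myh11* were at 33.9 and 20.4 CPM in control replicate 3 and at up to 19.0 and 14.5 CPM in the other libraries. Other lists were also highest in control replicate 3. The connective tissue genes summed to 5914 CPM there and to between 4261 and 5519 CPM in the other libraries, and the basement membrane genes to 5090.0 CPM against 4268 to 4981 CPM. The lymphatic genes summed to 130.2 CPM there and to between 81.9 and 113 CPM elsewhere. The part of spinal cord or connective tissue transcripts in these values was not tested. Without control replicate 3 the median log2 fold change was 0.05 for endothelial and 0.04 for mural members, and *Slco2a1* remained the 1 member with an unadjusted p under 0.05.

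**Figure D4:**
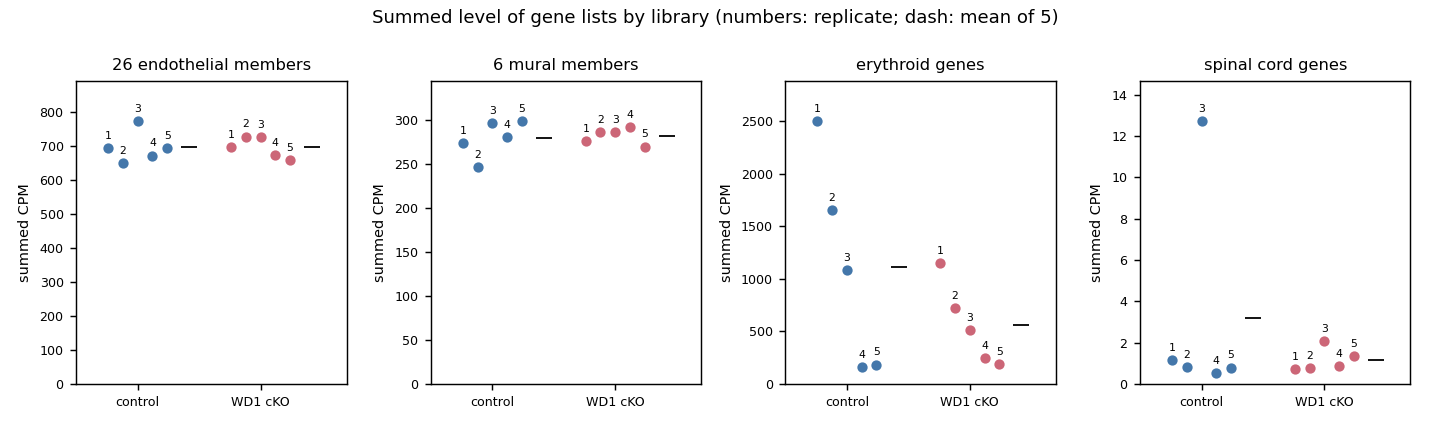
Summed CPM of the endothelial members, the mural members, erythroid genes and spinal cord genes in each library, with the replicate number above each point and a dash at the mean of 5. Erythroid genes are lowest in replicates 4 and 5 of both groups, and spinal cord genes are highest in control replicate 3 at 12.8 CPM.

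**Figure D5:**
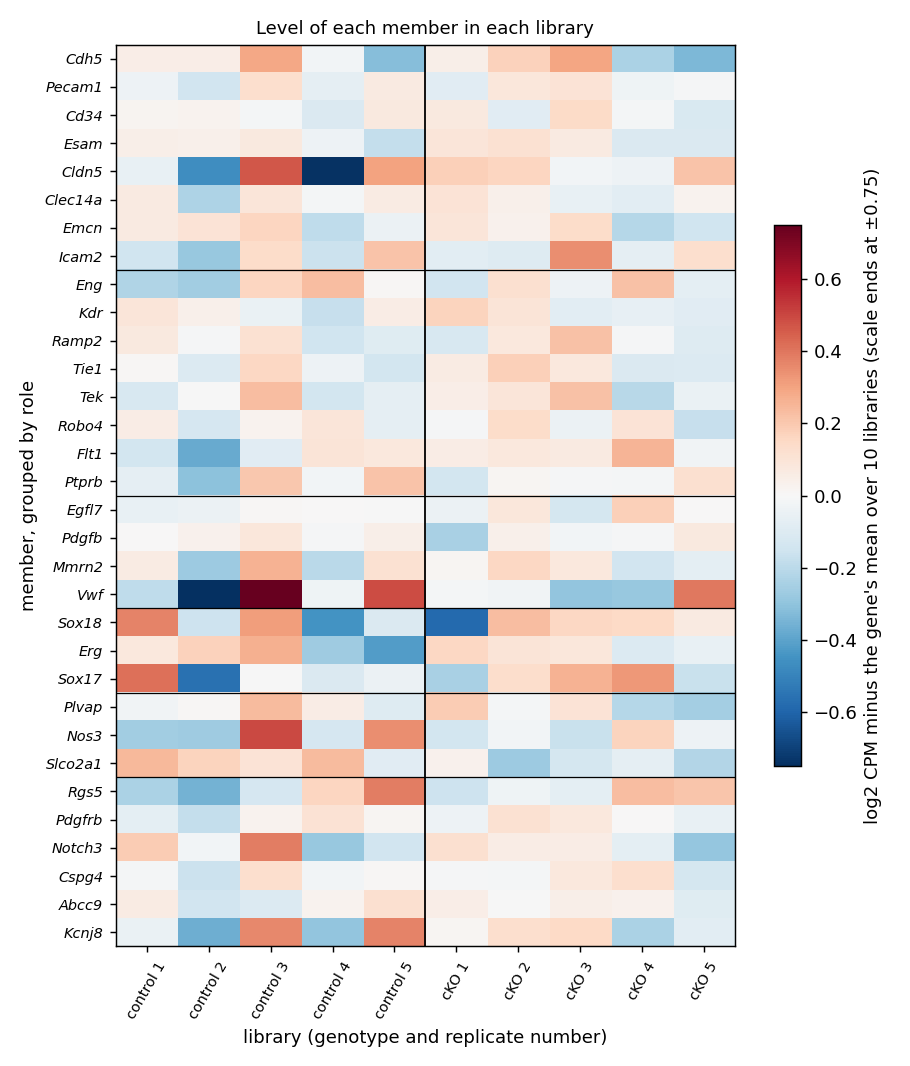
Log2 CPM of each member minus its mean over the 10 libraries, in rows grouped by role and with control libraries left of the line. Control replicate 3 is mostly red, with *Vwf* at 48.3 CPM, and control replicate 2 mostly blue, with *Vwf* at 15.6 CPM.

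Within the groups, the standard deviation of a member was between 5.99% and 34.0% of its mean, with a median of 10.6%, while counting alone would give a median of 4.10%.

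Of 4 pairs of members compared over the 10 libraries, *Pecam1* and *Pdgfrb* had the highest Pearson's r, 0.65 (permutation p = 0.0444, adjusted over the 4 pairs 0.178), with Spearman's rho 0.59 (permutation p = 0.0817, adjusted 0.327). It was 0.48 without the 2 libraries farthest from the median of *Pecam1*, so it rested in part on control replicates 2 and 3. Within replicates 1 to 3 of both groups, r was 0.89 (6 libraries, exact permutation p = 0.0333, adjusted 0.0667). For *Pecam1* and *Cdh5*, r was 0.32 over all libraries (permutation p = 0.354, adjusted 0.557; rho 0.39, permutation p = 0.263, adjusted 0.351) and 0.27 without the 2 farthest libraries. Within replicates 1 to 3 it was 0.91 (6 libraries, exact permutation p = 0.0167, adjusted 0.0667). *Kcnj8* and *Abcc9* had an r of 0.29 (permutation p = 0.418, adjusted 0.557; rho 0.41, permutation p = 0.246, adjusted 0.351), which was 0.46 without the 2 farthest libraries and 0.22 within replicates 1 to 3. *Pdgfb* and its receptor *Pdgfrb* had an r of 0.05 (permutation p = 0.883; rho -0.05, permutation p = 0.892), which was -0.33 without the 2 farthest libraries and 0.12 within replicates 1 to 3. No pair passed the adjustment.

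Other genes of vascular pathways were read beside all genes tested, of which 4.50% had an unadjusted p under 0.05 between genotypes. Of 14 VEGF and angiopoietin ligands and co-receptors, none had an unadjusted p under 0.05 and the median log2 fold change was 0.03. *Nrp1*, a VEGF co-receptor also known for guiding axons, was the most abundant of them by count. Of 16 genes of Notch, ephrin and arteriovenous identity, 1 did: *Jag2*, a Notch ligand, was at 128, 134, 125, 127 and 129.5 CPM in control and at 124, 121, 119, 123 and 123 CPM in *WD1* cKO embryos. Its groups did not overlap, as for 0.566% of all genes tested that were lower in every *WD1* cKO library. The log2 fold change was -0.08 (unadjusted p = 0.0165, adjusted p = 0.9998, edgeR). *Dll4*, the Notch ligand of tip cells, was at 5.57 ± 0.450 and 5.90 ± 0.726 CPM (SD, n = 5).

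Of 15 barrier and transport genes, 1 had an unadjusted p under 0.05, against 4.50% of all genes tested. *Slc7a5*, an amino acid transporter, was at 65.1, 66.8, 71.4, 73.8 and 67.0 CPM in control and at 65.5, 65.8, 58.3, 66.5 and 60.1 CPM in *WD1* cKO embryos, with a log2 fold change of -0.12 (unadjusted p = 0.0254, adjusted p = 0.9998, edgeR). *Mfsd2a*, a lipid transporter of the blood-brain barrier, was at 19.1 ± 1.26 and 18.0 ± 0.906 CPM (SD, n = 5). None of the 12 genes of chemokine, sphingosine phosphate and ALK1 signalling, the 14 other endothelial transcription factors tested of 15 and the 23 other endothelial genes tested of 26 had an unadjusted p under 0.05. Their median log2 fold changes were 0.05, 0.06 and 0.05. *Cxcl12* was at 33.9 ± 8.67 and 35.9 ± 7.47 CPM and its receptor *Cxcr4* at 11.02 ± 3.11 and 11.3 ± 0.305 CPM (SD, n = 5).

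None of the 5 lymphatic genes tested of 6, the 21 pericyte and smooth muscle genes and the 10 genes of vascular basement membrane had an unadjusted p under 0.05, and their medians were -0.09, -0.01 and 0.03. The lymphatic regulator *Prox1* was at 2.14 ± 0.780 CPM in control and 1.73 ± 0.386 CPM in *WD1* cKO embryos, and *Lyve1*, also known in macrophages, at 14.7 ± 2.15 and 13.7 ± 1.65 CPM (SD, n = 5).

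Genes of other cells gave the following, beside 4.50% of all genes tested with an unadjusted p under 0.05. The 8 erythroid genes tested had a median log2 fold change of -0.91 and the 9 muscle genes tested of 10 had -0.52, and no gene of either list had an unadjusted p under 0.05. Single libraries moved these medians. With control replicate 1 left out the erythroid median was -0.42, and with *WD1* cKO replicate 1 left out it was -1.36. The muscle genes summed to 234 CPM in control replicate 5 and to between 34.6 and 149 CPM in the other libraries, and their median was -0.26 without that library and -0.82 without *WD1* cKO replicate 3. Without control replicate 4 the muscle median was -0.78, and 5 of the 9 genes had an unadjusted p under 0.05, against 4.65% of all genes. Without control replicate 2, 2 of the 9 did, against 4.24% of all genes. Without *WD1* cKO replicate 3 it was also 2 of the 9, against 3.7% of all genes. *Hbb-bs* was at 588 ± 513 CPM in control and 308 ± 215 CPM in *WD1* cKO embryos, and the muscle actin *Acta1* at 36.6 ± 16.7 and 26.02 ± 5.71 CPM (SD, n = 5). Of 10 connective tissue genes, 1 had an unadjusted p under 0.05. *Lum*, a matrix proteoglycan, was at 35.1, 26.3, 39.6, 30.8 and 33.7 CPM in control and at 39.1, 37.9, 39.8, 35.9 and 39.4 CPM in *WD1* cKO embryos, and control replicate 3 lay within the range of the other group. It had a log2 fold change of 0.22 (unadjusted p = 0.0277, adjusted p = 0.9998, edgeR), and the median of the list was 0.09. No gene had an unadjusted p under 0.05 among 10 macrophage genes, 8 glial genes and the 3 platelet genes tested of 6, with medians of -0.04, 0.05 and 0.01. The 9 sensory neuron genes had a median of -0.04, and among them *Ntrk2*, the neurotrophin receptor TrkB, had a log2 fold change of -0.18 (unadjusted p = 0.00611, adjusted p = 0.9998, edgeR). One of the 7 spinal cord genes was tested, at 0.24. The part of blood, muscle or connective tissue in the members' values was not tested.

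The counts of 9 members can gain or lose reads where exons of another gene overlap theirs, as annotated in GRCm38. These were *Abcc9*, *Cd34*, *Egfl7*, *Eng*, *Nos3*, *Notch3*, *Ramp2*, *Slco2a1* and *Sox17*. In 8 of them the other gene lies on the opposite strand, and *Fpgs*, which overlaps *Eng*, was the most abundant of these at 32.6 CPM.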

How the data were processed

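Stranded mRNA libraries of whole DRG, 5 for each genotype, were sequenced. Per the submitters' processing notes, reads were demultiplexed with bcl2fastq 2.20.0.422, aligned with STAR 2.7.8a to GRCm39 and counted with featureCounts 2.0.1. The authors deposited raw counts per gene, without normalization, for each library. The strand setting and the handling of reads mapping to several places are not given in the sources used here.

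Genes that reached 10 counts in 5 or more libraries were tested in R 4.3.3 with edgeR 4.0.16 (TMM, quasi-likelihood test, no block), with Benjamini-Hochberg adjustment over 17490 genes. DESeq2 1.42.0 was an alternative, as were its size factors, no filter, a mean count of 100, a replicate block and leaving out each library. The procedure was tested on simulated data. Log2 CPM used a prior count of 1, and permutations used scipy 1.17.1 with 100000 resamples or all arrangements.

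The members and companion lists were chosen with earlier results of these data known. Companions were named for an unadjusted p under 0.05, for abundance or as defining markers. *Slc6a5*, *Pax2*, *Mnx1* and *Fpgs* were named after their values were seen. Pairs of libraries within a group had a chi-square between 4.35 and 15.0 for each degree of freedom. This sets separate embryos against counting noise alone, so it describes their spread and decides nothing further.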

Additional observations from a re-analysis of the deposited data

Results flagged for a closer look

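Over 124 groups of 5 libraries, 6 had a library far from the other 4 by Dixon's criterion, which chance alone passes in about 1 of 20 groups. Among the 64 groups of members there was 1. *Sox18* was at 4.13 CPM in *WD1* cKO replicate 1, against 6.47 to 7.26 CPM in the other 4 libraries of its group.

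In control replicate 3, the spinal cord genes summed to 12.8 CPM against 0.515 to 1.17 CPM in the other controls, *Olig2* was at 0.800 CPM against 0 to 0.220 CPM, and *Prox1* was at 3.48 CPM against 1.46 to 1.98 CPM. *Cxcr4* was at 16.4 CPM in control replicate 5 against 8.64 to 10.5 CPM. The platelet gene *Itga2b* was at 2.65 CPM in *WD1* cKO replicate 3 against 3.26 to 3.51 CPM.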

How the results depend on the processing

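No member had an adjusted p under 0.05 in any of the 5 other planned settings, in any of the 10 fits that left out a library (0 in each), or in the 3 settings added after seeing the data. *Slco2a1* kept its direction in all 18, with a log2 fold change from -0.32 to -0.23, and its adjusted p ranged from 0.349 to 0.99999. Its unadjusted p stayed under 0.05 in all but the fit of replicates 4 and 5. The medians of endothelial and mural members ranged without 1 library from -0.01 to 0.05 and from -0.02 to 0.05. Within replicates 1 to 3 the medians were 0.04 and 0.09, and within replicates 4 and 5 they were -0.02 and -0.07, so the sign differed between these sets, a difference that was not tested. The log2 fold change of *Dach1* ranged from -0.95 to -0.89 without 1 library.

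The count of members with an unadjusted p under 0.05 was 2 without the filter, with the replicate block and with the split of replicates as a term (*Flt1* and *Slco2a1* in each), 3 within replicates 1 to 3 (*Rgs5*, *Flt1* and *Slco2a1*) and 2 within replicates 4 and 5 (*Plvap* and *Sox18*). Over all genes, 4.03%, 7.10%, 7.33%, 4.95% and 6.44% had such a p in these 5 fits. Without 1 library it was 1 to 2, and *Flt1* joined without control replicate 4 or control replicate 5, where the shares over all genes were 4.65% and 5.55%. Without control replicate 2, the log2 fold change of *Flt1* was 0.09 (unadjusted p = 0.200, edgeR). *Jag2* had an unadjusted p of 0.0699 without the filter. Leaving out 1 of several libraries took the unadjusted p of *Slc7a5* and *Lum* above 0.05, to at most 0.0737 and 0.0635. Within replicates 1 to 3 the unadjusted p was 0.123 for *Slc7a5* and 0.129 for *Lum*, and within replicates 4 and 5 it was 0.151 for *Jag2* and 0.0550 for *Slc7a5* (edgeR). The cause was not tested. The 7 genes called over all genes became 4 when a mean count of 100 was required, so that fewer genes were tested, 10 without the filter, 20 with DESeq2's Wald test, which also ran without that filter and adjusted over 23055 genes, 11 with the split as a term, 3 within replicates 1 to 3, 3 within replicates 4 and 5, and 3 to 6 without 1 library. These fits of subsets hold fewer libraries.

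Replicate numbers do not pair the embryos by the labels. Deviations of same-numbered libraries correlated above 0.1 in 4 of 5 pairs, and in 2 of 5 numbers the libraries correlated best with each other. With the replicate block 8 genes were called over all genes, and 0 members.

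The lowest members, with under 10 CPM, have counting errors of up to 8.78%, and intervals within ±0.5 leave smaller differences undetected.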
